A study of Oryza sativa Japonica Group with 31 samples.

Results

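Transcripts of 6 enzymes of flavonoid and anthocyanin synthesis were followed in rice leaf with and without cold. They are given as a list of locus identifiers in pathway order, with an enzyme name for each, and all 6 were found among the 55801 loci of the expression table. The table itself carries identifiers only, so the enzyme names rest on that list. The rule that sets the list uses no measured value, though earlier results of these data were known when the list was drawn up. The plants were seedlings of Nipponbare, a japonica rice cultivar whose genome serves as the reference for the species, grown in liquid culture under 12 h of light at 28 °C and 12 h of darkness at 22 °C. Cold seedlings were moved to 4 °C on day 13 and collected after 24 h, and control (CK) seedlings stayed in the normal conditions for that time. No group carries a mutation or transgene, per the labels. Of the 31 libraries in the series, 4 are RNA-seq libraries, 2 from cold and 2 from control seedlings, called biological replicates in the labels. The series asks how R-loops, in which RNA pairs with one DNA strand and displaces the other, relate to transcription of cold-responsive genes.

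Flavonoids are made from a phenylpropanoid precursor by a chain of enzymes. Chalcone synthase (CHS) makes the chalcone skeleton, and chalcone isomerase (CHI) closes it into a flavanone. Flavones, a class common in grass leaves, branch off at the flavanone. On the way to anthocyanins, flavanone 3-hydroxylase (F3H) forms dihydroflavonols, and flavonoid 3'-hydroxylase (F3'H), a cytochrome P450, adds a hydroxyl group to the B ring of several of these compounds. Dihydroflavonol reductase (DFR) and anthocyanidin synthase (ANS) then lead to the coloured anthocyanidins. In many plants the leaf pigments made by this route build up in strong light and cold.

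Each treatment has 1 column of FPKM, fragment counts divided by locus length and by mapped fragments, a unit in which levels of different loci can be set side by side. How the libraries of a treatment enter its column is not stated in the labels or the header, so no value has a replicate error. No test was possible, and every difference below is a description of the columns. The FPKM values summed to 554475 in cold and 584870 in control. The number of reads behind them is unknown, so no counting interval or detection limit can be given. The leaf label was not checked against marker genes, because no identifier in the table could be matched to a gene name. Tissue was measured in bulk, so fewer cells of a type and less RNA per cell cannot be told apart.

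The 6 enzymes lay at 3 levels. CHS and CHI transcripts were abundant in cold and in control, F3'H was intermediate and, on the scale of log2(FPKM + 1), differed most between the treatments, and F3H, DFR and ANS were listed at under 1 FPKM in both columns. F3'H was 6.52-fold lower in cold, while CHS and CHI differed from control by 1.06-fold and 1.24-fold. The order by level was CHS, CHI, F3'H in both columns. The order of the weak enzymes was ANS above F3H above DFR in cold, and F3H above ANS above DFR in control. Without replicates, no neighbours in these orders can be said to differ beyond their spread.

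**Figure D1:**
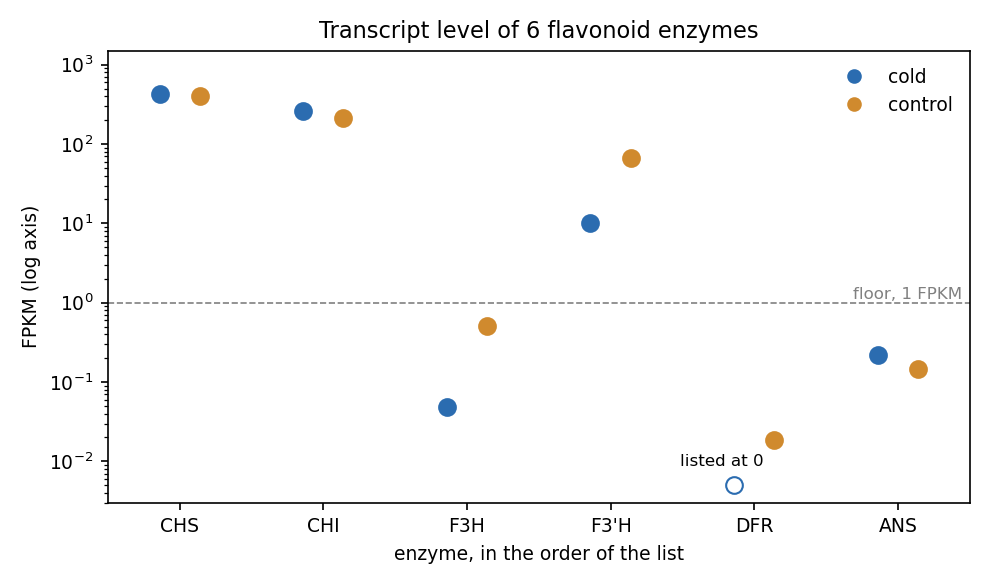
Level of each enzyme in FPKM (log axis) in cold (blue) and control (orange), in pathway order; each point is the authors' single value for a treatment, and the open circle marks DFR, listed at 0 in cold. CHS and CHI lie at 213 FPKM or more in both columns, F3'H is at 10.2 FPKM in cold and 66.4 FPKM in control, and F3H, DFR and ANS lie below the dashed line at 1 FPKM.

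CHS (LOC_Os11g32650, chromosome 11), the entry enzyme, was listed at 426 FPKM in cold and 403 FPKM in control. It ranked 121 among all loci by level in cold and 139 in control, above 99.6% of the 30785 loci detected above 0 in cold. The ratio of cold to control was 1.06. On the log2(FPKM + 1) scale, which has a pseudocount of 1 FPKM, the difference was 0.08. Over the 20876 loci that averaged 1 FPKM or more over the columns, called the loci past the floor below, the median difference on this scale was −0.27, so CHS lay 0.35 above the median. Loci with a mean level within 2-fold of that of CHS varied widely. Of 247 such loci, cold exceeded control by 2-fold or more in 25.5%, and was lower by 2-fold or more in 19.4%.

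CHI (LOC_Os03g60509, chromosome 3), which acts directly after CHS, was listed at 264 FPKM in cold and 213 FPKM in control, ranking 241 and 302. Its ratio of cold to control was 1.24. The difference was 0.31 on the log2(FPKM + 1) scale and lay 0.58 above the median of the loci past the floor. Among 511 loci of like level, 37.4% had a difference at or above that of CHI. Per length, CHS transcripts exceeded CHI transcripts 1.61-fold in cold and 1.89-fold in control. Both enzymes at the head of the route were thus among the top 1% of detected loci in each column, and neither passed 2-fold.

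F3'H (LOC_Os10g17260, chromosome 10), the hydroxylase of the B ring, was listed at 10.2 FPKM in cold and 66.4 FPKM in control. It ranked 9212 by level in cold and 1433 in control. This put it above 70.1% of detected loci in cold and 95.5% in control. The difference was −2.59 on the log2(FPKM + 1) scale, and −2.32 relative to the median of the loci past the floor. Only 102 of the 20876 loci, F3'H included, had a difference this low or lower, a share of 0.489%. Among 5050 other loci of like level, 36 did, or 0.713%, and 16.1% were at least 2-fold lower. F3'H was therefore far down in the lower tail of the columns, also among loci of its own level.

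The ratios of enzymes within a column do not depend on any factor that scales the whole column. F3'H transcripts were 41.9-fold fewer than CHS transcripts in cold and 6.07-fold fewer in control. Against CHI they were 26.0-fold fewer in cold and 3.21-fold fewer in control. The ratio of F3'H to CHS was thus 6.90-fold lower in cold than in control, and that of F3'H to CHI 8.09-fold lower. The ratio of CHI to CHS differed by 1.17-fold. A comparison of the summed level of the 6 enzymes between the columns does depend on such a factor. As deposited, the sum was nearly the same, at 701 FPKM in cold and 684 FPKM in control. Under median-of-ratios scaling it was 1.30-fold higher in cold. It was 1.08-fold higher after rescaling to the same column sum and 1.04-fold higher under quantile normalization. CHS made up 60.8% of that sum in cold and 59.0% in control. CHI made up 37.7% in cold and 31.2% in control, and F3'H 1.45% in cold and 9.71% in control.

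**Figure D2:**
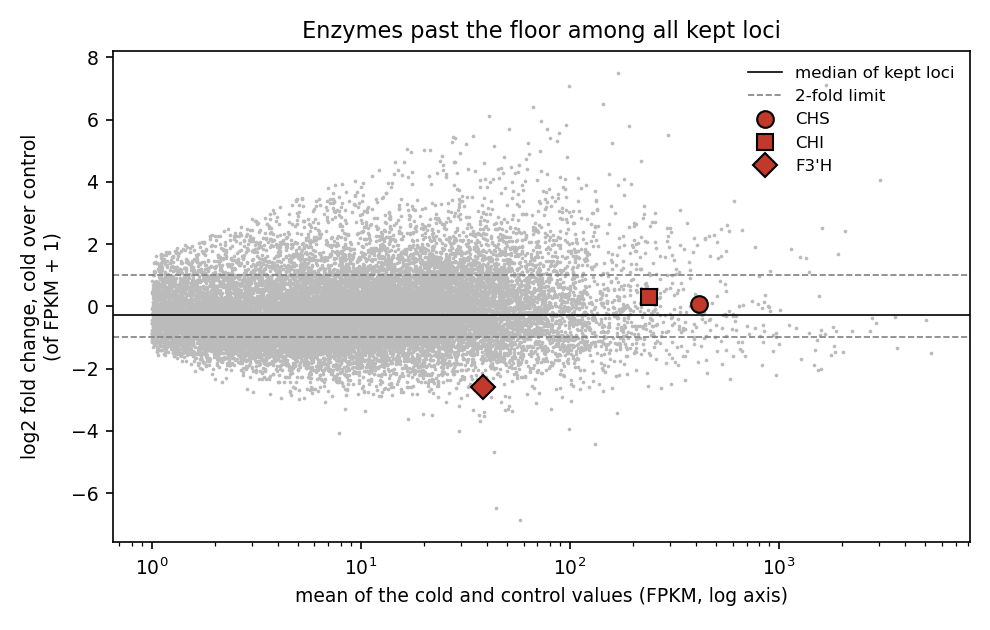
Difference between cold and control on the log2(FPKM + 1) scale against the mean of the columns in FPKM (log axis) for the 20876 loci past the floor (grey), with CHS, CHI and F3'H in red. CHS (0.08) and CHI (0.31) lie between the dashed 2-fold limits, and F3'H (−2.59) lies near the lower edge of the cloud at its level.

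F3H (LOC_Os04g56700, chromosome 4), which turns flavanones into dihydroflavonols, was listed at 0.0479 FPKM in cold and 0.502 FPKM in control. The ratio of these values was 10.5-fold lower in cold, larger than that of F3'H, but both values are low. On the log2(FPKM + 1) scale the difference was −0.52. Of 3515 loci of like mean level and above 0 in both columns, 4.38% had a ratio as low or lower. Of all 3846 loci of that level, another 4.03% were listed at 0 in cold and above 0 in control. The depth being unknown, it was not tested whether a difference between values this low exceeds counting error.

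DFR (LOC_Os01g44260, chromosome 1), which reduces dihydroflavonols, was listed at 0 in cold and at 0.0183 FPKM in control. No fold is given for it. Of 1889 loci with a mean level within 2-fold of that of DFR, 54.4% were listed at 0 in cold alone and 32.1% at 0 in control alone. Only 255 of the 1889 were above 0 in both columns, so a 0 in 1 column is usual at so low a mean. Of all loci above 0 in control, 8.97% were listed at 0 in cold, a share with another base that cannot be set against these.

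ANS (LOC_Os01g27490, chromosome 1), the enzyme that forms anthocyanidins, was listed at 0.217 FPKM in cold and 0.144 FPKM in control, a ratio of 1.503. The difference was 0.09 on the log2(FPKM + 1) scale. Of 3011 loci of like level above 0 in both columns, 28.1% had a ratio as high or higher. The summed level of F3H, DFR and ANS was 0.265 FPKM in cold and 0.665 FPKM in control. CHS exceeded ANS 1966-fold in cold and 2796-fold in control, but both folds rest on ANS values well under 1 FPKM. Whether these folds differ beyond counting error was not tested, the depth being unknown.

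Against the floor of a mean of 1 FPKM, 3 of the 6 enzymes passed, namely CHS, CHI and F3'H, and each of them was above 1 FPKM in both columns. Of all loci, 37.4% passed. Among the 6, 0 were at least 2-fold higher in cold on the log2(FPKM + 1) scale, where 12.5% of the loci past the floor were, and 1 was at least 2-fold lower, where 19.2% were. These background shares turned with the scale, to 18.1% higher and 11.0% lower under median-of-ratios scaling, 14.8% and 14.2% under quantile normalization, and 7.97% and 7.75% with a pseudocount of 5 FPKM. The count of enzymes was 0 higher and 1 lower under each of these. The remaining 5 differed by less than 2-fold, as did 68.3% of the loci past the floor, but with means as low as theirs F3H, DFR and ANS could not have passed 2-fold on this scale. The count that matches this background is therefore 1 of the 3 enzymes past the floor, too few to stand apart from it. The 1 that passed also passed 4-fold, as did 2.15% of the loci past the floor in that direction and 3.86% in the other. The median difference was 0.08 over the 3 enzymes past the floor, against −0.27 over all loci past the floor. Over all 6 enzymes it was 0.03, against 0 over all 55801 loci with no floor. With a pseudocount of 0.1 FPKM, or with none, F3H was also past 2-fold and 2 enzymes were lower. The share of loci past the floor that were at least 2-fold lower then rose too, to 25.3% and 26.0%. F3H itself is below that floor.

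The neighbours of the enzymes in the order of the identifiers show whether a whole stretch differed alongside them. For each enzyme the 5 loci past the floor on either side were taken. As background, 19.2% of all loci past the floor were at least 2-fold lower in cold and 12.5% at least 2-fold higher. Around F3'H, 2 of 10 neighbours were at least 2-fold lower and 0 at least 2-fold higher. The neighbours' differences ran from −1.52 to 0.99 with a median of −0.60, so none was as low as F3'H. The nearest such locus before it was listed at 0.772 FPKM in cold and 4.10 FPKM in control, and the nearest after it at 87.4 FPKM in cold and 98.9 FPKM in control. Of the loci directly adjoining F3'H in the table, that before it was listed at 0 in cold and 0.0162 FPKM in control, and that after it at 0.0284 FPKM in cold and 0 in control. Around CHS, 1 of 10 neighbours was at least 2-fold lower and 0 higher. Of those around CHI, 2 were higher and 1 lower, with a highest difference of 4.31.

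The neighbours of the weak enzymes were counted in the same way, though levels as low as those of the enzymes themselves hold their own differences under 2-fold on this scale. Around DFR, 6 of 10 neighbours were at least 2-fold lower in cold and 0 higher, against 19.2% and 12.5% of all loci past the floor. Their median difference was −1.10 and the lowest −2.74. Around ANS, 2 were higher and 0 lower. Around F3H, 1 was higher and 2 were lower. Reads that near-identical copies or overlapping loci share cannot be traced in these values, because neither the strand setting nor the treatment of multiply mapped reads is stated. Whether such reads contribute to the level of any of the 6 enzymes was not tested.

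**Figure D3:**
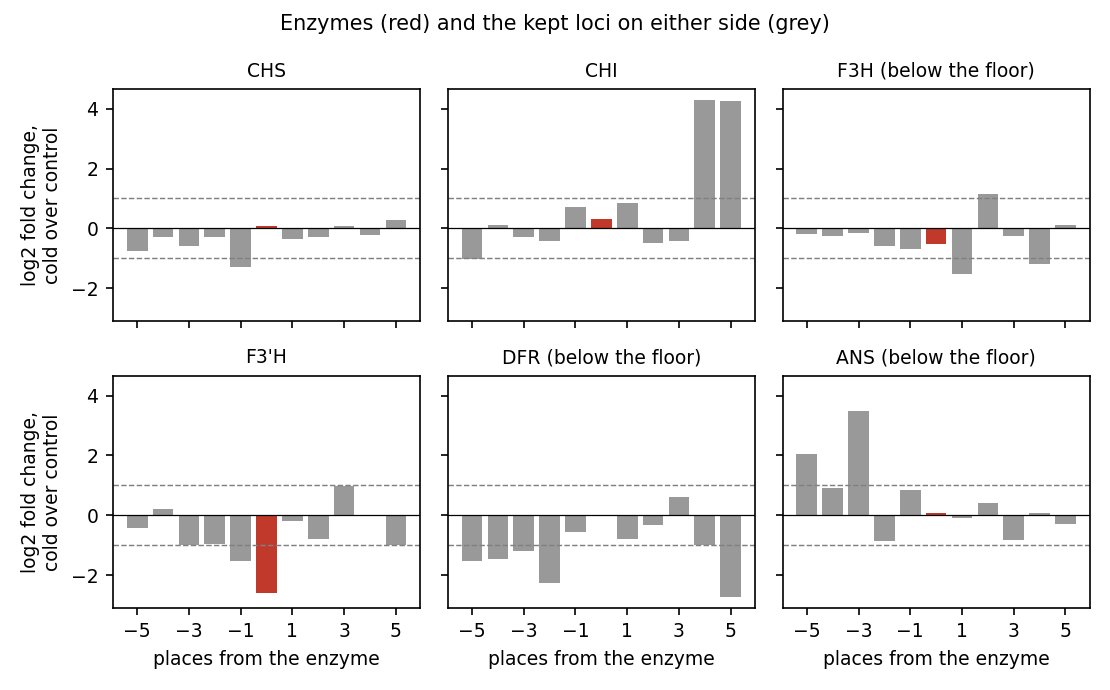
Difference between cold and control on the log2(FPKM + 1) scale for each enzyme (red) and for the 5 loci past the floor on either side in the order of the identifiers (grey); dashed lines mark 2-fold. F3'H at −2.59 is lower than all 10 of its neighbours. Of the 10 neighbours of DFR, 6 are past the lower limit, as are 19.2% of all loci past the floor. DFR itself, below the floor, is at −0.03.

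The loci most like an enzyme were taken by the distance between their log2(FPKM + 1) values over the 2 columns. For F3'H, the enzyme with the lowest difference, these were LOC_Os02g42810 on chromosome 2 and LOC_Os05g47540 on chromosome 5. The first was listed at 10.7 FPKM in cold and 66.8 FPKM in control, a distance of 0.064, and the second at 10.6 FPKM in cold and 62.6 FPKM in control, a distance of 0.096. For CHI, the enzyme past the floor with the highest difference, the closest loci were LOC_Os11g26910 on chromosome 11 and LOC_Os06g42720 on chromosome 6. The first was at 266 FPKM in cold and 210 FPKM in control, a distance of 0.020. The second was at 255 FPKM in cold and 204 FPKM in control, a distance of 0.080. With 2 values per locus such likeness is easily met, and 11 loci lay within a distance of 0.25 of F3'H.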

How the data were processed

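Only the RNA-seq values were used, and the 27 libraries of other assays were not analysed here. The deposited table holds FPKM made by the authors, 1 column for cold and 1 for control. Bowtie, HISAT2 2.1.0, featureCounts 1.6.4, SAMtools, FastQC, Trim Galore 0.4.3 and Trimmomatic 0.39 are listed for all assays at once, with no roles, per the submitters' processing notes, and messenger RNA was enriched with oligo(dT) beads, per the labels' protocols. The extraction protocol speaks of seedlings where the labels give leaf. No source used here states the genome build, annotation or strand setting, so no coordinates are printed. Because FPKM is relative to the mapped total, a few very abundant transcripts can shift a whole column.

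Planned tests across libraries with limma could not be made with 1 value per treatment. Differences are log2(FPKM + 1) in cold minus control. Loci with a mean under 1 FPKM (34925 of 55801) were left out of the background of loci past the floor. The loci of like level were taken from all loci, with no floor. The text names the 6 enzymes and, for those past the floor with the highest and the lowest difference, the 2 closest loci. Other pathway genes and leaf markers were to be used only if a reference named their identifiers. None of the identifiers was found among 39387 RefSeq genes (assembly ASM3414082v1). The enzymes, which the rule sets by identifier alone, and the lists were chosen with earlier results of these data known. The comparison with loci of like level was added after the columns had been seen. The scripts were tested on counts simulated at an assumed depth, with no spread between replicates. Of 200 planted 4-fold changes, all at loci past the floor, 99.5% were recovered. That checks the code only, and does not bear on the error of these columns or on enzymes below the floor. Python 3.11.15, numpy 2.4.6, pandas 2.3.3 and matplotlib 3.10.9 were used.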

Additional observations from a re-analysis of the deposited data

How the results depend on the processing

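The values were recomputed with pseudocounts of 0.1 and 5, 3 scalings between the columns and other floors, and, chosen after seeing the data, without a pseudocount and with a floor on either column. Of 134 recomputed values, 123 stayed within the limits set (1.5-fold for counts and ratios, 10 percentage points, 0.1 for median and 0.5 for single log2 differences), 10 moved and 1 reversed. Many of the 134 could not have moved. Scaling a column keeps the ranks in it, and scaling by a factor also keeps the ratios within it. Changing the floor keeps the differences and counts of the enzymes. The 123 thus overstates how far the results hold across settings. F3'H stayed between −2.70 and −2.23, CHS between 0.08 and 0.43 and CHI between 0.26 and 0.65, with the same direction under every setting run. The count of enzymes at least 2-fold lower was 2 with a pseudocount of 0.1 and 2 with none, since F3H was then at −2.03 and −3.39. The share of loci past the floor at least 2-fold lower rose as well, to 25.3% and 26.0%. Median-of-ratios scaling moved the median of the loci past the floor by 0.30, which reversed it to 0.029. This scaling centres the ratios of the loci detected in both columns, so a median this small was largely fixed in advance. The same scaling brought the median of the enzymes past the floor to 0.43. Quantile normalization moved the median of the loci past the floor by 0.17. The ratio of F3'H to CHS differed by −2.79 (log2) under these scalings. Which scale is right was not tested. No paired analysis was possible because the table gives a single value per treatment and no replicate numbers, and fits without each replicate were not run for the same reason. The unknown depth limits what can be said of F3H, DFR and ANS.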

Other observations

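Some loci near the enzymes differed widely between the treatments. They were noticed after the values were seen and have no gene name here. At 4 and 5 places after CHI on chromosome 3, consecutive loci past the floor were listed at 108 and 49.5 FPKM in cold, against 4.54 and 1.65 FPKM in control. Their differences were 4.31 and 4.25 on the log2(FPKM + 1) scale. Of the loci past the floor, 3.86% were at least 4-fold higher, a lower limit than these differences. At 3 places before ANS on chromosome 1, a locus was listed at 15.2 FPKM in cold and 0.435 FPKM in control, a difference of 3.50. At 5 places after DFR, also on chromosome 1, a locus was listed at 1.96 FPKM in cold and 18.7 FPKM in control, a difference of −2.74. Of the loci past the floor, 2.15% were at least 4-fold lower. All of these loci were picked as extremes among the neighbours of the enzymes.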
